A study of Mus musculus with 16 samples.

Results

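The genes described are the 7 Rgs genes Rgs1, Rgs2, Rgs3, Rgs10, Rgs14, Rgs16 and Rgs19, taken by their Ensembl identifiers from a count table of 55573 genes. All 7 passed the filter on low counts, which left 13711 genes tested. RNA was sequenced from OT1 cells, CD8 T cells of the C57BL/6 strain whose transgenic receptor recognises an ovalbumin peptide, after transfer into tumour-bearing mice and sorting from the tumours 5 days later. The sort used CD8, the congenic markers CD45.1 and/or CD90.1, and a dye that marks dead cells. The 16 libraries form 4 groups of 4: Foxp3UP, MockUP, Foxp3DN and MockDN. All groups share the OT1 receptor, the strain and the transfer. The design text describes a mixture of Foxp3UP and Mock cells given to the mice, and says nothing of the DN libraries. The labels give no meaning for UP and DN, no method by which Foxp3 was imposed, no tumour type, and no number of mice behind a library, so the group names are used here as names. Nothing in the labels says that the libraries of a group came from separate mice or cultures, and the p-values therefore measure the spread between these libraries, which may be technical.

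RGS proteins are regulators of G-protein signalling. A receptor coupled to a heterotrimeric G protein loads the alpha subunit with GTP, the alpha and beta-gamma subunits then act on effectors such as adenylyl cyclases and phospholipase C, and an RGS protein ends the signal by speeding hydrolysis of the GTP. In lymphocytes these receptors include those for chemokines, prostaglandins and adenosine, and RGS proteins limit how strongly and how long the cells respond to them. Rgs1, Rgs2, Rgs3 and Rgs16 belong to the R4 subfamily, Rgs10 and Rgs14 to the R12 subfamily, and Rgs19 to the RZ subfamily.

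In the UP arm, Rgs2, Rgs10 and Rgs14 were higher in Foxp3UP than in MockUP, by 1.48-fold, 1.76-fold and 1.40-fold, and in each of them the lowest Foxp3UP library lay above the highest MockUP library (8.61% of tested genes were so placed). Rgs1, Rgs3, Rgs16 and Rgs19 did not pass the test. Between Foxp3DN and MockDN none of the 7 passed it. With the replicate number as a block, Rgs1 was also called higher and Rgs16 was called lower in Foxp3UP. The share of all tested genes called in Foxp3UP against MockUP was 12.1% (1654 of 13711), with 6.08% called higher. The 3 of 7 members are to be read against these shares. The members were chosen with earlier results of these data known, so an excess over the shares is no evidence about Rgs genes as a set. DESeq2 called the same number of members, 3, and 14.9% of genes. With the block, 25.3% of genes were called, and 5 of the 7 members.

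Promoter sequences are shown for 3 members that sit on chromosomes 1 and 7, Rgs2 and Rgs10 because they were higher in Foxp3UP and Rgs16 because its values went the other way. Each is the 250 bases before a RefSeq transcription start on GRCm38.p6, written in the direction of the gene, with the matches to the motifs searched in capitals. They are Rgs2 at chr1:144004150-144004399 (minus strand), Rgs10 at chr7:128418173-128418422 (minus strand) and Rgs16 at chr1:153740103-153740352 (plus strand).
Rgs2: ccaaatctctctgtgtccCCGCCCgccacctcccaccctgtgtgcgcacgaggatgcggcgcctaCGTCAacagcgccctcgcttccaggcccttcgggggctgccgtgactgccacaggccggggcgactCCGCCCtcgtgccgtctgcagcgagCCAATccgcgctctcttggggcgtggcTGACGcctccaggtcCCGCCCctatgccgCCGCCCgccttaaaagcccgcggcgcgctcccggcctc
Rgs10: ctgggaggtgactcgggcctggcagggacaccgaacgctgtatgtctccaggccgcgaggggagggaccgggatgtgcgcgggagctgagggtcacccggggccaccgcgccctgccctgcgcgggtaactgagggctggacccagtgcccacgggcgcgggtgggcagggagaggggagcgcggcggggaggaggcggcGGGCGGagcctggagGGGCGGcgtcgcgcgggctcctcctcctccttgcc
Rgs16: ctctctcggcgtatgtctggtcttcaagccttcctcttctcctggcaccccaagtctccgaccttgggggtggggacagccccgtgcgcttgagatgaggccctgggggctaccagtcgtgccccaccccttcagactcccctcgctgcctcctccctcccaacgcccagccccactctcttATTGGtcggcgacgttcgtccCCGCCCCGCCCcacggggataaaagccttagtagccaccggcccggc
6 short motifs were searched on both strands. GTAAACA is a forkhead core, the class of site that Foxp3 and its relatives bind. TGACG is the core of a cAMP response element, to which CREB proteins bind. TGANTCA is the letter code of an AP-1 site, bound by dimers of Fos and Jun proteins. CCAAT, the CCAAT box, is a common promoter element bound by the factor NF-Y. GGGCGG, the GC box, is bound by factors of the Sp family and is usual in CpG-rich promoters. TATAAA, the TATA box, places the start of transcription at some promoters. The motifs were chosen after the promoters had been read, and a match describes the letters only. The Rgs2 window held 2 response element cores, 1 CCAAT box and 4 GC boxes. The Rgs10 window held 2 GC boxes, and the Rgs16 window held 1 CCAAT box and 2 GC boxes, which overlap at their ends. None of the 3 held the letters of the forkhead core, the AP-1 site or the TATA box. Of 32851 RefSeq promoters of the same length, 3.17% held the forkhead core, 17.8% the response element core, 6.75% the AP-1 site, 33.8% a CCAAT box, 32.7% a GC box and 12.4% a TATA box. GC content was 72.4% in Rgs2, 76.4% in Rgs10 and 66.4% in Rgs16, and the median of all promoters was 52.4%. The table of RefSeq promoters matched 5 of the 7 members.

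Libraries held 9389477 to 13226590 counts. Foxp3 itself, the gene named in the labels, was at 15.2 to 29.5 CPM in Foxp3UP, 11.5 to 13.7 in MockUP, 10.1 to 10.4 in Foxp3DN and 11.0 to 14.6 in MockDN. All Foxp3UP libraries lay above the rest, and all Foxp3DN libraries lay below those of MockDN. The shares of all genes so placed are not given here. The mean was 23.6 ± 6.82 CPM in Foxp3UP (CPM are counts scaled by TMM to a common library size; SD, n = 4) against 12.4 ± 1.12 in MockUP, a log2 fold change of 0.92 ± 0.17 (SE, adjusted p = 0.00233). It was 0.56 (adjusted p = 0.207) in replicates 1 and 2 alone and 1.18 (adjusted p = 4.04e-05) in replicates 3 and 4. The mean was 10.3 ± 0.130 CPM in Foxp3DN and 12.9 ± 1.52 in MockDN, a difference that did not pass (log2 -0.33 ± 0.17, adjusted p = 1.00). The 7 genes listed for CD8 T cells summed to 6319 to 7464 CPM in Foxp3UP, 4316 to 6628 in MockUP, 5919.5 to 6781 in Foxp3DN and 5981 to 6389 in MockDN, and 1 of them, Cd2, was called higher in Foxp3UP than in MockUP (909 ± 124 against 597 ± 167 CPM, log2 0.61, adjusted p = 0.0214). Cd4 was under 1 CPM. Ms4a1, Pax5, Siglech and Cdh5 had no counts, but the lists they belong to did: the B cell list summed to 3.8 to 7.92 CPM, the dendritic cell list to 18.8 to 33.2 and the endothelial list to 47.6 to 68.4 over all libraries, with none of their tested genes called in Foxp3UP against MockUP. Melanocyte genes were present, with summed levels of 61.7 to 143 CPM in Foxp3UP, 63.1 to 94.3 in MockUP, 36.2 to 81.2 in Foxp3DN and 22.8 to 72.9 in MockDN over 5 genes, of which none was called in Foxp3UP against MockUP. The 9 myeloid genes summed to 53.0 to 74.1 CPM in Foxp3UP and 36.4 to 54.5 in MockUP, and 1 of the 8 tested, Cd68, was called (22.7 ± 4.33 against 12.5 ± 2.97 CPM, adjusted p = 0.00207). Their part in the results on the Rgs genes was not tested. In bulk RNA, fewer cells that express a gene and less RNA per cell cannot be told apart. The library MockUP 2 stood apart on the second principal component of log2 CPM.

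Per length of gene model, the members spanned a wide range of levels. Rgs16 was highest at 720 RPKM (CPM divided by the exon length in kilobases, as the mean of 16 libraries), rank 47 of the 13711 genes tested. Rgs1 followed at 316 RPKM (rank 146) and Rgs2 at 201 RPKM (rank 241), so that 3 of the R4 genes lay within the top 1.76% of tested genes. Rgs19 was at 43.0, Rgs14 at 13.1, Rgs3 at 11.2 and Rgs10 at 6.01 RPKM, the last at rank 6410. The Rgs1 value is lowered by its gene model, whose exons cover all 6947 bases of the gene; by count alone Rgs1 ranked 28 and Rgs16 ranked 46. All comparisons below are within a gene, on the CPM scale.

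**Figure D1:**
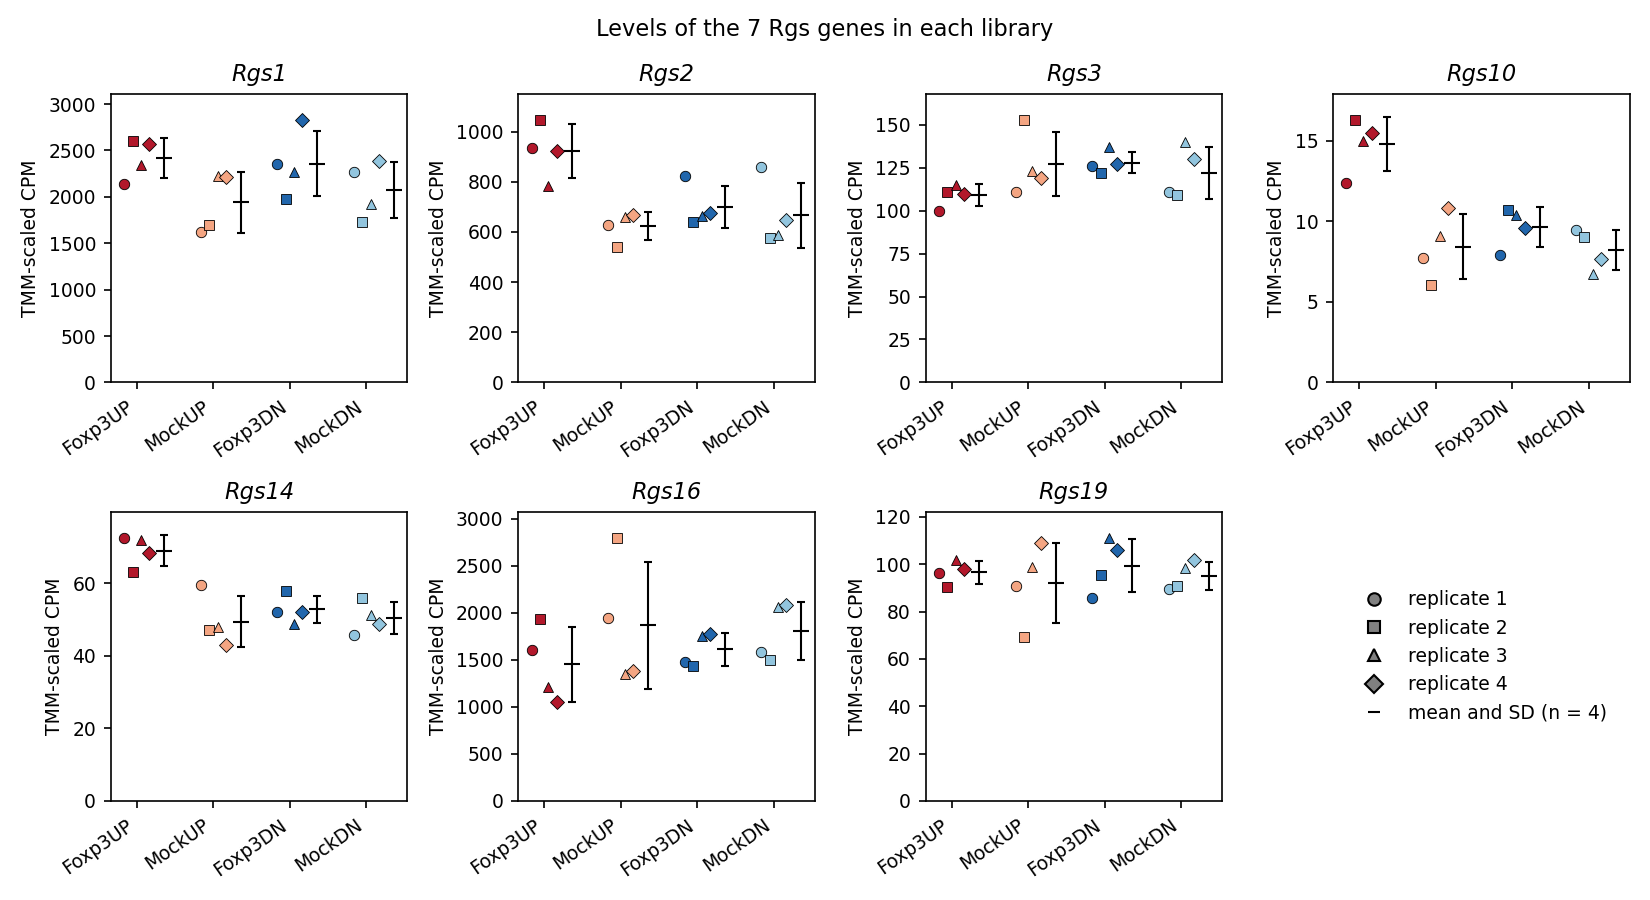
TMM-scaled CPM of the 7 Rgs genes in each of the 16 libraries, by group, with the replicate number as the symbol and bars for the mean and SD (n = 4). Foxp3UP lies above MockUP with no overlap for Rgs2, Rgs10 and Rgs14; in Rgs16 and Rgs1 the groups overlap.

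Rgs2 (ENSMUSG00000026360; chromosome 1, 143999338 to 144004161, minus strand, mm10) encodes an R4 protein known for acting on the Gq class of alpha subunits. In replicates 1 to 4 its level was 936, 1047, 783 and 924 CPM in Foxp3UP and 629, 541, 658 and 666 CPM in MockUP. In Foxp3DN it was 824, 639, 663 and 676 CPM, and in MockDN 858, 574, 589 and 646 CPM. All 4 Foxp3UP libraries exceeded all 4 MockUP libraries, while the DN groups overlapped, each with replicate 1 as its highest library. Rgs2 rose in Foxp3UP against MockUP (log2 fold change 0.57 ± 0.13, adjusted p = 0.0103). The DN arm gave 0.07 ± 0.13 (adjusted p = 1.00). The difference between these effects was 0.49 ± 0.19 and did not pass (adjusted p = 0.195), but it did with the replicate block (0.48 ± 0.13, adjusted p = 0.0305). Its promoter is the one printed above with 2 cores of a cAMP response element.

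Rgs10 (ENSMUSG00000030844; chromosome 7, 128373621 to 128418758, minus strand) encodes a small R12 protein made of little more than the RGS domain. It was the member with the fewest reads, 64 to 196 counts per library. Its level was 12.4, 16.3, 15.0 and 15.5 CPM in Foxp3UP and 7.74, 6.07, 9.08 and 10.8 CPM in MockUP. In Foxp3DN it was 7.92, 10.7, 10.4 and 9.59 CPM, and in MockDN 9.44, 9.02, 6.72 and 7.64 CPM. Every Foxp3UP library lay above all 12 libraries of the other groups, which overlapped among themselves. Against MockUP alone 8.61% of tested genes were so placed, and against Foxp3DN alone 11.7%. The share for the other groups together was not computed. The rise in Foxp3UP against MockUP was 0.82 ± 0.17 on the log2 scale (adjusted p = 0.00573), the largest among the 7. Between Foxp3DN and MockDN the value was 0.23 ± 0.17 (adjusted p = 1.00), and the difference of the effects, 0.58 ± 0.24, did not pass (adjusted p = 0.248; 0.124 with the block). The printed promoter lies inside the outer limits of this gene, since the gene model in the count table reaches further upstream than the RefSeq start.

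Rgs14 (ENSMUSG00000052087; chromosome 13, 55369732 to 55384687, plus strand) encodes an R12 protein that also carries Ras-binding domains and a GoLoco motif, which holds inhibitory alpha subunits in their GDP form. Its level was 72.4, 63.1, 72.0 and 68.3 CPM in Foxp3UP and 59.5, 47.1, 47.9 and 42.9 CPM in MockUP. In Foxp3DN it was 52.1, 57.9, 48.8 and 52.2 CPM, and in MockDN 45.7, 56.0, 51.3 and 48.8 CPM. As with Rgs10, all Foxp3UP libraries lay above the other 12, a placing whose share over all genes was not computed. Rgs14 rose by 0.48 ± 0.11 in Foxp3UP against MockUP (log2, adjusted p = 0.00678), and the value was 0.07 ± 0.11 in Foxp3DN against MockDN (adjusted p = 1.00). The call was lost when only the 8 libraries compared were fitted (adjusted p = 0.0617), where 5.05% of genes were called. The difference of the effects was 0.42 ± 0.15 (adjusted p = 0.167), and it passed with the block (adjusted p = 0.0290) and without MockUP 1 (0.53, adjusted p = 0.0439).

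Rgs1 (ENSMUSG00000026358; chromosome 1, 144242296 to 144249242, minus strand) encodes an R4 protein known for damping the response of lymphocytes to chemokines. Its level was 2143, 2603, 2346 and 2570 CPM in Foxp3UP and 1619, 1701, 2221 and 2219 CPM in MockUP. In Foxp3DN it was 2351, 1981, 2271 and 2831 CPM, and in MockDN 2265, 1729, 1926 and 2386 CPM. The groups overlapped in both arms. The value in Foxp3UP against MockUP was 0.32 ± 0.14 (log2, adjusted p = 0.158), and it passed with the replicate block at nearly the same size (0.33 ± 0.08, adjusted p = 0.00985). The DN arm gave 0.18 ± 0.14 (adjusted p = 1.00), and the difference of the effects was 0.13 ± 0.20 (adjusted p = 0.810). Rgs1 was higher in the Foxp3 library of all 8 pairs of the same arm and number, with log2 ratios of 0.05 to 0.61. The share of all tested genes with the same sign in all 8 pairs was not computed.

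Rgs16 (ENSMUSG00000026475; chromosome 1, 153740349 to 153745468, plus strand) encodes an R4 protein known as a gene induced by activation of T cells. Its level was 1604, 1939, 1208 and 1052 CPM in Foxp3UP and 1947, 2793, 1352 and 1383 CPM in MockUP. In Foxp3DN it was 1481, 1439, 1752 and 1773 CPM, and in MockDN 1585, 1494, 2063 and 2084 CPM. Within the UP groups replicates 1 and 2 were higher than replicates 3 and 4, and within the DN groups they were lower. The value in Foxp3UP against MockUP was -0.37 ± 0.22 (log2, adjusted p = 0.307), and it passed with the block, which takes out the level of each pair (-0.34 ± 0.07, adjusted p = 0.00275). Without MockUP 2, the highest library, it was -0.11 (adjusted p = 0.784) in the fit with no block. The DN arm gave -0.17 ± 0.22 (adjusted p = 1.00), and the difference of the effects was -0.20 ± 0.31 (adjusted p = 0.818). Rgs16 was lower in the Foxp3 library of all 8 pairs, with log2 ratios of -0.53 to -0.05, the reverse of Rgs1. Here too the share over all genes was not computed.

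The antisense gene Gm28513 overlaps Rgs16 on the opposite strand and shares 236 of its own 613 exonic bases with it. Its counts were 17.6% to 19.3% of those of Rgs16 in every library, and its value in Foxp3UP against MockUP was also -0.37 (± 0.21, adjusted p = 0.269), which passed with the block (-0.34 ± 0.07, adjusted p = 0.00235) and was -0.14 without MockUP 2 (adjusted p = 0.702). No source used here says whether strand was used in counting. Where the genes overlap, reads of the antisense gene and of Rgs16 therefore cannot be told apart.

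**Figure D2:**
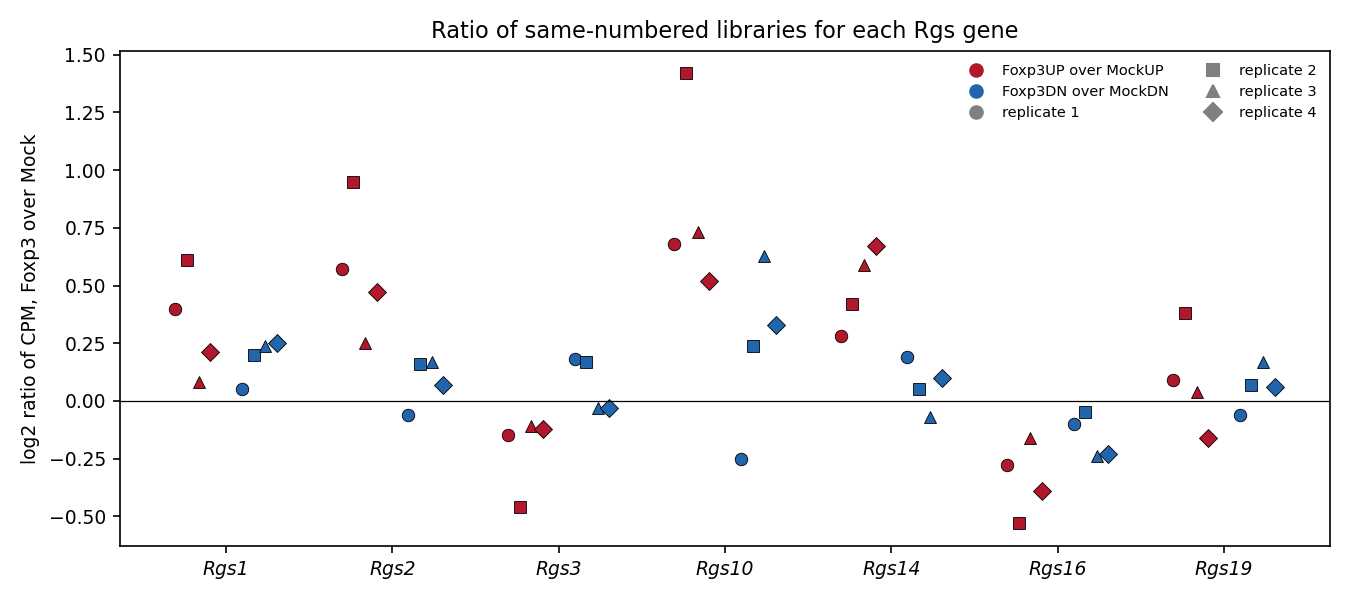
Log2 ratio of CPM, Foxp3 over Mock, for libraries of the same arm and replicate number, for each of the 7 genes; red marks the UP arm, blue the DN arm, and the symbol the replicate. All 8 ratios lie above 0 for Rgs1 and below 0 for Rgs16, and 7 of 8 lie above 0 for Rgs2, Rgs10 and Rgs14. The shares of all genes with such ratios were not computed.

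Rgs3 (ENSMUSG00000059810; chromosome 4, 62559847 to 62704001, plus strand), an R4 gene with several start sites and protein forms, had its lowest mean in Foxp3UP, 109 ± 6.48 CPM, against 127 ± 18.6 in MockUP, 128 ± 6.12 in Foxp3DN and 122 ± 15.0 in MockDN. The value in Foxp3UP against MockUP was -0.22 ± 0.11 (adjusted p = 0.196; 0.0537 with the block), or -0.12 without MockUP 2 (adjusted p = 0.431), and in Foxp3DN against MockDN 0.06 ± 0.11 (adjusted p = 1.00). Rgs19 (ENSMUSG00000002458; chromosome 2, 181688419 to 181693977, minus strand), also known as GAIP and the RZ member here, was nearly level across groups, at 96.6 ± 4.80, 92.1 ± 17.0, 99.4 ± 11.1 and 95.1 ± 5.90 CPM in Foxp3UP, MockUP, Foxp3DN and MockDN. Its value was 0.07 ± 0.12 in the UP arm and 0.06 ± 0.12 in the DN arm, and neither passed (adjusted p = 0.766 and 1.00). Without MockUP 2 the UP value was -0.05 (adjusted p = 0.786).

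In Foxp3DN against MockDN, 1 gene of all those tested was called (0.00729%). No member was called by edgeR or by DESeq2 (which also called 0.00729% of genes), none had an unadjusted p under 0.05, and the members' values ran from -0.17 (Rgs16) to 0.23 (Rgs10). The difference of the effects called 1.83% of all genes and none of the members by edgeR or DESeq2 (4.75% of genes by the latter), although 3 members (Rgs2, Rgs10 and Rgs14) had an unadjusted p under 0.05, as did 15.6% of all genes. That these members passed in the UP arm and not in the DN arm therefore does not show, without the block, that the arms differ. With the block, 12.7% of genes passed the test of the difference, Rgs2 and Rgs14 among them, and with replicates 3 and 4 alone 12.4% of genes and Rgs14 passed. The Mock groups were compared as well: 0 members differed between MockUP and MockDN by edgeR or DESeq2, none at an unadjusted p under 0.05, where edgeR called 0.00729% of genes and DESeq2 0.0583%.

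Foxp3UP against Foxp3DN uses the same Foxp3UP libraries as the comparison with MockUP, so its values are given beside the others and are not a second line of evidence. Rgs10 (0.62 ± 0.17, adjusted p = 0.0255) and Rgs14 (0.39 ± 0.11, adjusted p = 0.0235) were called, where 11.8% of all genes were. Rgs2 was at 0.40 ± 0.13 (adjusted p = 0.0597). It passed with the replicate number as a block across arms (adjusted p = 0.0198, 20.1% of genes called) and with DESeq2 (adjusted p = 0.0338, 15% of genes called). Rgs3 was at -0.23 ± 0.11 (adjusted p = 0.168), and its Foxp3UP libraries all lay below the Foxp3DN libraries, as for 11.2% of genes. Those of Rgs10 and Rgs14 all lay above, as for 11.7% of genes. The members called were 0 of 7 in replicates 1 and 2 (0.928% of genes), 5 in replicates 3 and 4 (25.2%) and 4 when only the libraries compared were fitted (18.9%). The calls of Rgs10 and Rgs14 were near the threshold. Rgs10 lost its call when any of Foxp3UP 2, 3 and 4 or Foxp3DN 1, 3 and 4 was left out (adjusted p 0.0537 to 0.0810), and Rgs14 when any of Foxp3UP 1 and 3 or Foxp3DN 1, 3 and 4 was left out (0.0627 to 0.103).

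**Figure D3:**
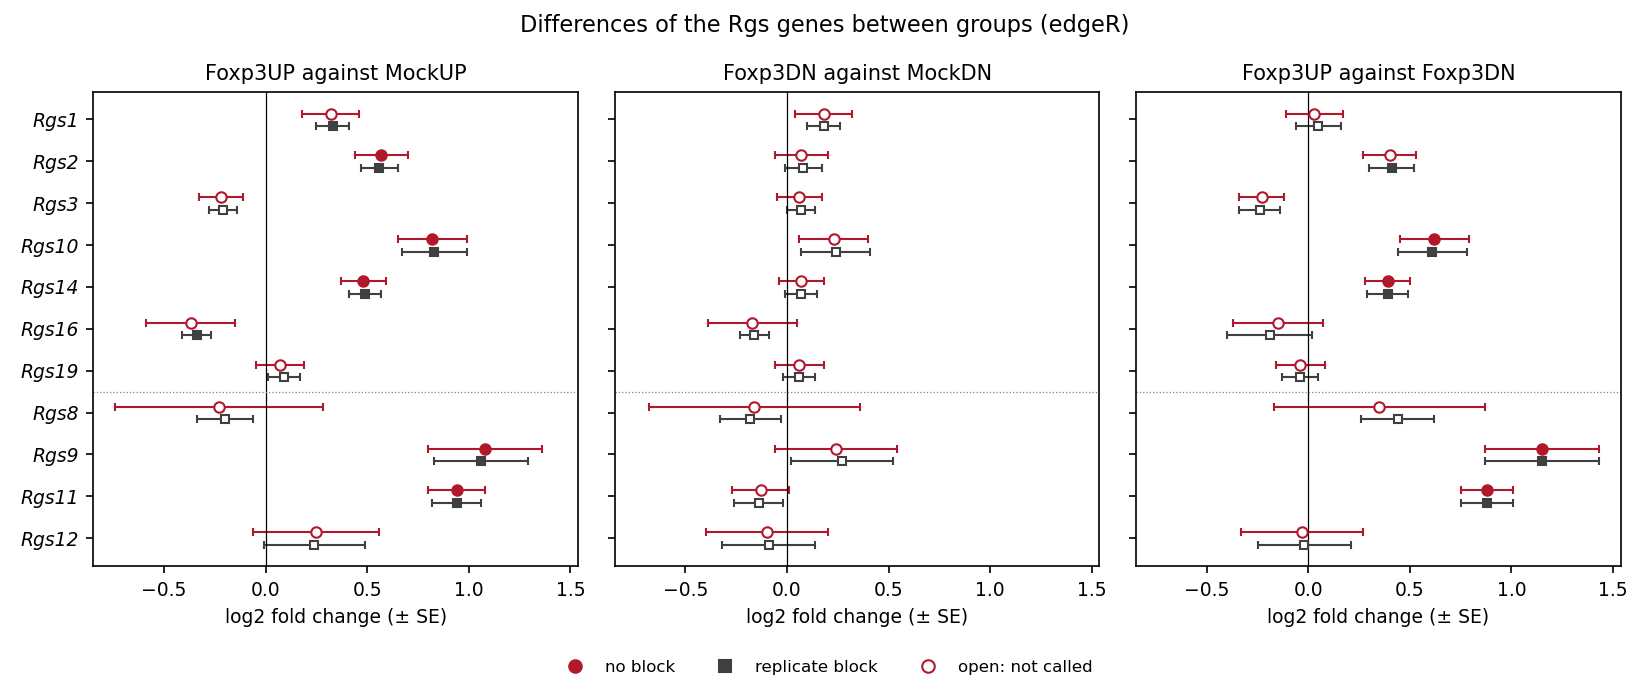
Log2 fold change with its SE for the 7 members (above the dotted line) and 4 other tested Rgs genes, in 3 comparisons; circles are fits with no block, squares have the replicate number as a block, and filled symbols were called at an adjusted p under 0.05. Filled symbols are seen in the outer panels and none in Foxp3DN against MockDN; the first and the last panel share the Foxp3UP libraries.

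The titles number the samples so that replicates 1 and 2 of all groups come before replicates 3 and 4, and these sets were also fitted apart. In replicates 1 and 2 the values in Foxp3UP against MockUP were 0.76 for Rgs2, 1.05 for Rgs10 and 0.34 for Rgs14, and none passed (adjusted p = 0.151, 0.116 and 0.315), in a fit that called 0.221% of genes. In replicates 3 and 4 they were 0.35, 0.60 and 0.60, and all passed (adjusted p = 0.00523, 0.0179 and 0.000217), with 22.2% of genes called. Rgs16 was at -0.42 and -0.30 in these sets, and the second value passed (adjusted p = 0.00879). MockUP against MockDN gave opposite signs for Rgs16, 0.62 in replicates 1 and 2 (adjusted p = 0.646) and -0.61 in replicates 3 and 4 (adjusted p = 0.000580, with 0.256% of genes called). The labels do not say what the sample numbers stand for.

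Across the 16 libraries some members varied together. The highest correlation between members was that of Rgs2 and Rgs10 (r = 0.756 of log2 CPM), followed by Rgs10 and Rgs14 (0.649), and the lowest were Rgs10 and Rgs16 (-0.646) and Rgs3 and Rgs10 (-0.643). Among 8423 genes with a mean log2 CPM of at least 3, those with the pattern most like each member were sought over the same libraries. For Rgs2 they were Nfil3 (r = 0.884), a transcription factor gene of lymphocytes, and AA467197 (0.878). For Rgs10 they were Hint3 (0.920) and Rnf130 (0.918), and for Rgs14 Ccnd3 (0.957), which encodes cyclin D3, and Tap2 (0.955), a subunit of the peptide transporter for class I antigen presentation. For Rgs1 they were Rnf138 (0.884) and Cd28 (0.875), the costimulatory receptor, and for Rgs16 Zmym1 (0.930) and Aars (0.912). For Rgs3 they were Lats1 (0.953) and Rnf19b (0.943), and for Rgs19 Rwdd1 (0.963) and Dcun1d5 (0.949). These correlations share the groups, the replicate sets and the scaling of the libraries and are given as descriptions.

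Of 17 other genes of the Rgs family and its binding proteins, 4 passed the filter (Rgs8, Rgs9, Rgs11 and Rgs12) and 13 did not, with at most 4 counts in any library and 5 of them at 0 throughout. Rgs11 and Rgs9 are R7 genes, whose proteins work bound to the beta subunit encoded by Gnb5. Rgs11 was at 44.4, 38.8, 49.8 and 47.6 CPM in Foxp3UP and 23.7, 25.3, 19.0 and 26.1 CPM in MockUP. It was at 20.3 to 31.0 CPM in Foxp3DN and 24.5 to 29.0 CPM in MockDN. Foxp3UP thus stood above every other library, again with no share over all genes computed. The log2 fold change in Foxp3UP against MockUP was 0.94 ± 0.14 (adjusted p = 0.000448), and Rgs11 passed the test of the difference of effects (1.07 ± 0.19, adjusted p = 0.00860). With replicates 1 and 2 alone that difference was 0.76 and did not pass (adjusted p = 0.448).

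Rgs9 was low, at 4.14, 5.82, 7.02 and 7.92 CPM in Foxp3UP and 2.40, 3.70, 2.83 and 2.81 CPM in MockUP. Its rise of 1.08 ± 0.28 (adjusted p = 0.0192) was lost without Foxp3UP 3 (1.01, adjusted p = 0.0522) or Foxp3UP 4 (0.94, adjusted p = 0.0617). In replicates 1 and 2 alone neither Rgs11 (0.76, adjusted p = 0.118) nor Rgs9 (0.71, adjusted p = 0.390) passed. Gnb5, the partner of both, was at 0.21 ± 0.20 and did not pass (adjusted p = 0.550). The R12 gene Rgs12 was at 0.25 ± 0.31 (adjusted p = 0.666).

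On chromosome 1, Rgs2 and Rgs1 lie 238.1 kb apart with Rgs13 between them, and Rgs21 and Rgs18 lie beyond Rgs1. Rgs13 and Rgs21 had no counts and Rgs18 at most 3 in a library, so that the expressed genes of this cluster were its outer member Rgs2 and Rgs1. Rgs8, an R4 gene known mainly from brain, ends 40.0 kb before Rgs16. Rgs8 had 43 to 250 counts per library and 12.5 to 23.7 CPM in replicates 1 and 2 of all groups against 3.61 to 9.79 CPM in replicates 3 and 4, with no overlap. Rgs19 was the only member whose sets did not overlap, at 69.3 to 96.4 CPM in replicates 1 and 2 and 97.9 to 111 CPM in replicates 3 and 4. The share of all tested genes whose sets did not overlap was not computed. On the first principal component of log2 CPM, replicates 3 and 4 lay below replicates 1 and 2 in every group. Between Foxp3UP and MockUP, Rgs8 was at -0.23 ± 0.51 (adjusted p = 0.825).

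**Figure D4:**
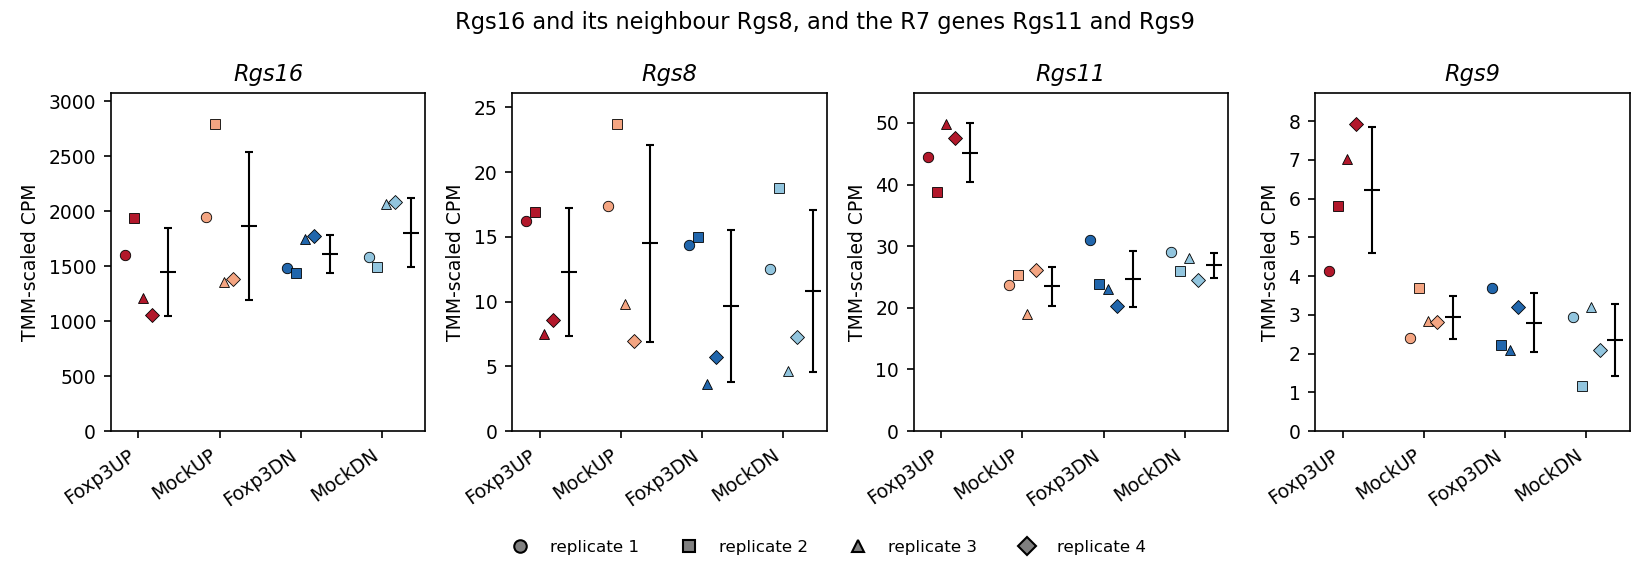
TMM-scaled CPM by library for Rgs16, its neighbour Rgs8, and the R7 genes Rgs11 and Rgs9, with the replicate number as the symbol and bars for the mean and SD (n = 4). Rgs8 splits by replicate set in all 4 groups, Rgs16 takes opposite orders in the UP and DN groups, and Rgs11 and Rgs9 are highest in Foxp3UP.

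The partners of the Rgs proteins were followed in 7 further lists, again in Foxp3UP against MockUP. The lists, like the 7 members, were drawn up with earlier results of these data known, so an excess over all genes is no evidence about them as sets. The median log2 fold change was 0.0041 over all genes and 0.32 over the 7 members. The counts are to be read against the 12.1% of all genes called, with 6.08% called higher. Counts with the block are to be read against the 25.3% of all genes called in that fit. Of 9 tested genes of alpha subunits, 2 rose and none fell. These were Gnai2, the main inhibitory subunit of lymphocytes (941 ± 110 against 723 ± 87.2 CPM, log2 0.38, adjusted p = 0.0412), and Gna15, a Gq-class subunit of blood cells (63.8 ± 6.45 against 45.5 ± 5.36 CPM, 0.49, adjusted p = 0.00451). The median of the list was 0.14. Gnai2 lost its call when any of the 8 libraries other than MockUP 1 was left out (adjusted p 0.0569 to 0.165).

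Of 11 tested beta and gamma subunits 4 rose, none fell, and the median was 0.32; with the block 5 rose. They were Gng2 (140 ± 11.0 against 95.8 ± 12.6 CPM, log2 0.55, adjusted p = 0.00354), Gngt2 (3.96 ± 0.603 against 1.41 ± 0.585 CPM, 2.82-fold, adjusted p = 0.00157), Gnb4 (0.61, adjusted p = 0.0322) and Gng12 (0.50, adjusted p = 0.0335). Gnb4 lost its call when any of Foxp3UP 1 and 3 or MockUP 2, 3 and 4 was left out (adjusted p 0.0622 to 0.111), and Gng12 when any of Foxp3UP 3 and 4 or MockUP 2 was left out (0.0512 to 0.100). None of 12 receptor kinases, arrestins and G-protein chaperones was called by edgeR or DESeq2 (median 0.05). Of these 12, 2 had an unadjusted p under 0.05, as did 26.7% of all genes. With the block 2 rose, in a fit that called 25.3% of all genes. Of 9 proteins of other families with an RGS domain 2 rose, the sorting nexin gene Snx14 (0.46, adjusted p = 0.0228) and the guanine nucleotide exchange factor gene Arhgef11 (1.44, adjusted p = 0.0297), with a median of 0.06. Snx14 lost its call when any of Foxp3UP 1 or MockUP 3 and 4 was left out (0.0540 to 0.105), and Arhgef11 when any of Foxp3UP 1 and 4 or MockUP 1, 3 and 4 was left out (0.0539 to 0.0821).

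Of 41 tested leukocyte receptors coupled to G proteins 13 rose and 1, the fractalkine receptor gene Cx3cr1 (-1.38, adjusted p = 0.00125), fell, with a median of 0.12. With the block, which called 25.3% of all genes, 16 rose and 5 fell. The calls with the smallest adjusted p were chemokine receptor genes Ccr3 (41.7 ± 22.6 against 0.564 ± 0.308 CPM, log2 6.17) and Ccr2 (1112 ± 162 against 546 ± 70.5 CPM, 1.03), the leukotriene B4 receptor gene Ltb4r1 (68.9 ± 10.3 against 21.6 ± 6.65 CPM, 1.67) and Gpr55 (32.1 ± 7.47 against 11.8 ± 2.71 CPM, 1.44). Their adjusted p were 4.87e-07, 4.28e-05, 8.26e-05 and 0.000117.

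Downstream, 2 of 18 tested effector genes fell and none rose (median -0.05), and with the block (25.3% of all genes called) 3 fell and 2 rose. They were Pde7a, a phosphodiesterase that breaks down cAMP (94.5 ± 9.05 against 148 ± 23.9 CPM, log2 -0.65, adjusted p = 0.00157), and Prkar2a, a regulatory subunit of protein kinase A (38.5 ± 2.01 against 53.2 ± 7.69 CPM, -0.47, adjusted p = 0.0144). Of 10 tested genes known to respond to cAMP, 3 fell and none rose (median -0.50; 5 fell and 1 rose with the block), namely Nr4a2 (325 ± 41.0 against 496 ± 54.1 CPM, -0.61, adjusted p = 0.00628), Nr4a3 (55.9 ± 13.1 against 103 ± 25.7 CPM, -0.88, adjusted p = 0.00573) and Fosb (-1.04, adjusted p = 0.0306). These are early-response genes that other stimuli of T cells also induce, the antigen receptor among them. Fosb lost its call when any of Foxp3UP 1, 3 and 4 or MockUP 2 was left out (adjusted p 0.0566 to 0.0896), and its value was -0.55 without MockUP 2. In Foxp3DN against MockDN none of the 110 tested genes of these 7 lists was called by edgeR or DESeq2. Of them 1 had an unadjusted p under 0.05, as did 1.04% of all genes. The difference of the effects was called for 7 of the 110 (1.83% of all genes), which were 5 receptors, 1 gamma subunit and 1 effector. DESeq2 called it for 14 of them (4.75% of all genes), and the fit with the block for 30 (12.7%).

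Several of the calls named from these lists were lost in other fits of Foxp3UP against MockUP. With only the libraries compared, these were Gna15 and Prkar2a (both adjusted p = 0.0583), Fosb (0.0839), Arhgef11 (0.0846), Gnb4 (0.101), Snx14 (0.102), Gnai2 (0.141) and Gng12 (0.146). With no filter they were Snx14 (0.0559), Gnai2 (0.0585), Gng12 (0.0719) and Fosb (0.114), and with library totals Snx14 (0.0527) and Gnai2 (0.100). With replicates 1 and 2 alone, where 0.221% of genes were called, the calls of all genes named from these lists were lost except those of Ccr3 (5.43, adjusted p = 0.00193) and Ccr2 (1.00, adjusted p = 0.0312).

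**Figure D5:**
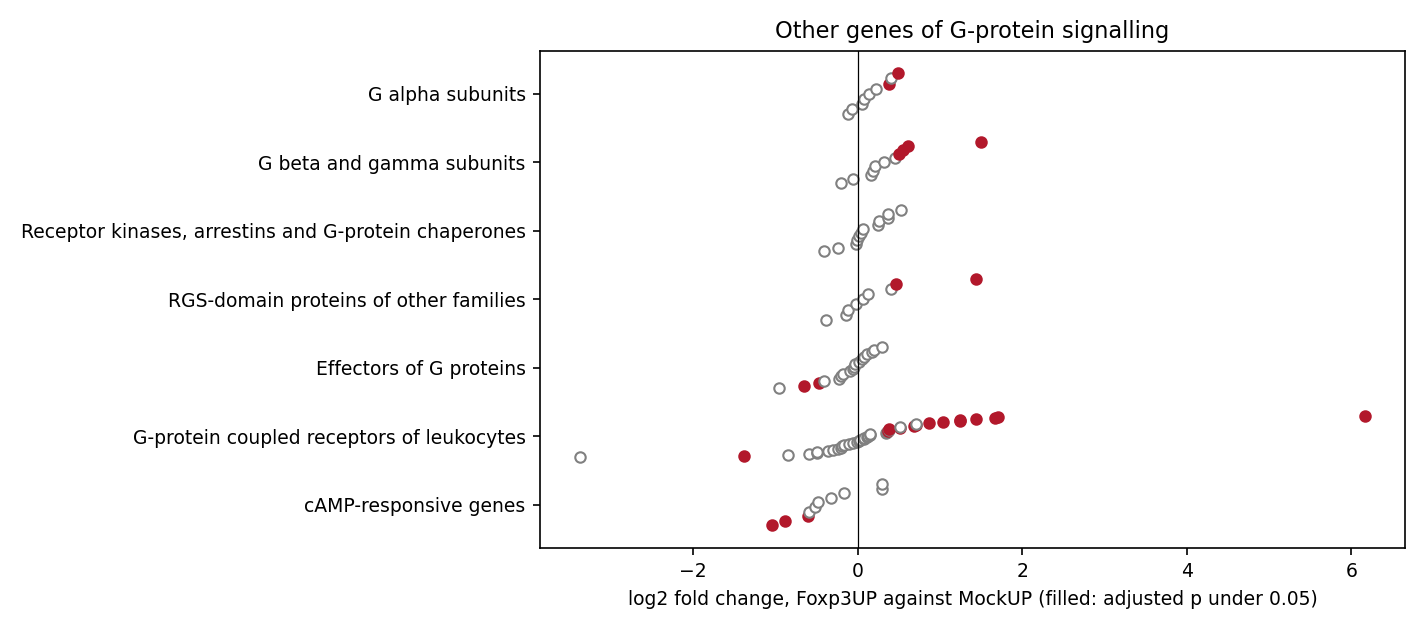
Log2 fold change in Foxp3UP against MockUP for each tested gene of the 7 lists of G-protein signalling, filled where the adjusted p was under 0.05. Filled points lie right of 0 for the G-protein subunits, left of 0 for effectors and cAMP-responsive genes, and on both sides for the receptors, from -1.38 (Cx3cr1) to 6.17 (Ccr3).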

How the data were processed

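The authors deposited unnormalized read counts for each gene and library. Per the submitters' processing notes, STAR (2.6.1), Subread (1.6.3) and the mm10 build were used; how reads were counted, with or without strand and on which annotation, no source used here states. Gene symbols came from GENCODE M21, in which 55480 of 55573 identifiers were found. No column belonged to another sample.

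Genes passing filterByExpr (minimum count 10) were given TMM factors and fitted in edgeR (4.0.16, under R 4.3.3; robust quasi-likelihood F test over all 16 libraries, Benjamini-Hochberg over 13711 genes, called under 0.05, two-sided). SE is the log2 fold change over the square root of F. Levels are TMM-scaled CPM, and RPKM uses the exonic length in the table. Alternatives were RLE factors, library totals, no filter, at least 1 CPM in 4 libraries, DESeq2 1.42.0, only the libraries compared, replicates 1 and 2 or 3 and 4, a replicate block, and leaving out each library. The edgeR fits were also run on simulated counts with known changes, whose results are not given here. These counts held no pairs and no replicate sets, so they do not cover that structure of the data.

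Foxp3 and Mock libraries of equal number deviated together from their group means (r = 0.630, 0.213, 0.297 and 0.398 in UP, and 0.364, 0.582, 0.545 and 0.298 in DN). The highest r with a Mock library of another number was 0.0444, 0.173, 0.22 and 0.364 in UP. In DN it was 0.235, 0.172, 0.237 and 0.208. Numbers were taken as pairs within an arm. For MockUP against MockDN and Foxp3UP against Foxp3DN the block was instead the number shared across arms, where r was 0.107 to 0.326. Whether numbers pair across arms was not tested. Blocked values are given for calls of the Rgs genes and counts of the lists that they change.

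Members and lists were chosen with earlier results of these data known. Named were the 7 members, Foxp3, the other tested Rgs genes, up to 4 called genes of smallest adjusted p per list, and the 2 genes most correlated with each member (log2 CPM, prior count 2). Gm28513, Gnb5, Cx3cr1, Cd2 and Cd68 were named after their values were seen.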

Additional observations from a re-analysis of the deposited data

Results flagged for a closer look

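The effects in the UP and DN arms differed by edgeR's test of the difference (adjusted over all genes) for the genes listed here. None of the 7 members was among them in the fit without a block. Foxp3 differed by 1.25 on the log2 scale (adjusted p = 0.0144) and Rgs11, the R7 gene, by 1.07 (adjusted p = 0.00860). Gngt2, a gamma subunit gene, differed by 1.56 (adjusted p = 0.0406), and Pde7a, the phosphodiesterase gene, by -0.73 (adjusted p = 0.0291). The receptor genes Ccr3, Ccr2, Ltb4r1 and Gpr55 differed by 5.45, 0.92, 1.81 and 1.40 (adjusted p = 0.00212, 0.00693, 0.00350 and 0.00975). The receptor gene Cx3cr1 differed by -1.43 (adjusted p = 0.0301). With replicates 1 and 2 alone none of these differences passed (adjusted p from 0.136 for Ccr3 to 0.454 for Gpr55). With replicates 3 and 4, where 12.4% of genes were called, all passed except that of Gngt2 (1.05, adjusted p = 0.177). Of 48 groups of 4 libraries, over Foxp3 and the 11 tested Rgs genes, none held a library far from the other 3 by Dixon's test. Chance passes this test in about 1 of 20 groups. With 4 values it flags only a library at a great distance, so it clears none. MockUP 2, which stood apart on the second principal component, was among the libraries not flagged.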

How the results depend on the processing

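The count of members called in Foxp3UP against MockUP was 3, and it stayed at 3 in all 8 fits that left out a library. It was 0 with replicates 1 and 2 alone and 5 with the replicate block. The leave-one-out range was 0.50 to 0.64 for Rgs2 (adjusted p 0.00974 to 0.0371), 0.68 to 0.95 for Rgs10 (0.00387 to 0.0192) and 0.41 to 0.58 for Rgs14 (0.00150 to 0.0312). For the difference of effects the count was 1 (Rgs14) with replicates 3 and 4 and 2 with the block, and 0 to 1 when libraries were left out. For MockUP against MockDN it was 1 (Rgs16) with replicates 3 and 4. For Foxp3UP against Foxp3DN it was 1 with no filter, 0 with replicates 1 and 2, 5 with replicates 3 and 4, 4 with only the libraries compared, and 0 to 2 when libraries were left out. For Foxp3DN against MockDN it was 0 in all fits run. Except for the values given beside each result, the block changed no other call of a member. Counts over all genes moved by more than 1.5 times with the block (Foxp3UP against MockUP 1654 to 3475, the difference of effects 251 to 1739), and the cause was not tested.

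Signs turned, on values that passed no test, as follows. With replicates 3 and 4, Rgs19 was at -0.08 in Foxp3UP against MockUP; Rgs3 at -0.04 and Rgs9 at -0.03 in Foxp3DN against MockDN; Rgs1 at -0.12, Rgs19 at -0.19 and Rgs8 at 0.28 in the difference; Rgs1 at 0.04, Rgs2 at 0.10, Rgs3 at -0.16 and Rgs19 at 0.05 in MockUP against MockDN; and Rgs1 at -0.08 and Rgs12 at 0.22 in Foxp3UP against Foxp3DN. Rgs16 in MockUP against MockDN turned to -0.61 there and passed, and it was at -0.00092 with the replicate number as a block across arms. With replicates 1 and 2, Rgs10 was at -0.42 and Rgs14 at 0.06 in MockUP against MockDN, and Rgs16 at 0.27 and Rgs19 at 0.03 in Foxp3UP against Foxp3DN. The difference of Rgs19 was at -0.01 with DESeq2 and RLE factors, -0.03 with library totals and -0.0044 with no filter. Leaving out a library gave these ranges that cross 0. In Foxp3UP against MockUP they were -0.05 to 0.15 for Rgs19 and -0.47 to 0.11 for Rgs8. In Foxp3DN against MockDN they were -0.02 to 0.21 for Rgs2, -0.47 to 0.25 for Rgs8 and -0.30 to 0.21 for Rgs12. In the difference they were -0.37 to 0.06 for Rgs16, -0.11 to 0.09 for Rgs19 and -0.48 to 0.27 for Rgs8. In MockUP against MockDN they were -0.17 to 0.04 for Rgs2, -0.06 to 0.11 for Rgs3, -0.11 to 0.15 for Rgs10, -0.15 to 0.03 for Rgs14, -0.22 to 0.17 for Rgs16 and -0.15 to 0.06 for Rgs19. In Foxp3UP against Foxp3DN they were -0.05 to 0.13 for Rgs1, -0.12 to 0.0034 for Rgs19 and -0.21 to 0.16 for Rgs12. The cause of these turns was not tested. Among the tested Rgs genes, depth limits Rgs9, Rgs10 and Rgs12 most, with at most 73, 196 and 62 counts in a library.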
